A study of Mus musculus with 6 samples.

Results

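Messenger RNA levels of 10 genes of cellular iron and heme handling were compared between mouse hearts that differ in the cardiotonic steroid affinity of the Na/K-ATPase α1 subunit. The 10 genes were Tfrc, Slc40a1, Slc11a2, Fth1, Ftl1, Ireb2, Aco1, Alas1, Fech and Hmox1. They were selected by role, covering iron uptake, storage, export, sensing and heme synthesis and breakdown, from 54532 genes in the count table. The set was proposed with earlier results in view and was chosen on the measured fall of Tfrc between these same hearts. The differences of the 10 genes are therefore given as descriptions, with standard errors and without p-values.

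Total RNA from whole hearts was sequenced, with 3 α1r/rα2s/s hearts (mice 368, 369 and 370) and 3 α1s/sα2s/s hearts (mice 379, 380 and 381). In α1r/rα2s/s mice the α1 subunit is the resistant form normal for rodents, whereas α1s/sα2s/s mice have α1 made sensitive by introduced amino acid substitutions. Both groups are homozygous for the sensitive α2 subunit, the form natural to mice, and the modified α1 of α1s/sα2s/s mice is present in every tissue, not in the heart alone. The mice were 3 months old, on a C57BL/6 background and untreated as far as the labels state. The study describes its mice in general as males with littermate controls, and the sequenced groups as age-matched. Each library came from 1 mouse.

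Cells take up transferrin-bound iron through the transferrin receptor, keep the surplus in ferritin and release iron through ferroportin. Iron regulatory proteins tie these steps together. When iron is scarce they bind hairpins called iron-responsive elements, which blocks translation if the hairpin lies in the 5′ UTR, as in ferritin and ferroportin transcripts, and stabilizes the mRNA if the hairpins lie in the 3′ UTR, as in the transferrin receptor transcript. In heart muscle, iron is needed for the iron-sulfur clusters and heme of the respiratory chain and for the heme of myoglobin.

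Matches to an iron-responsive element pattern are shown first. They separate the members into those with a match in the 5′ UTR, those with a match in the 3′ UTR and those without a match. They were read from GENCODE M21 transcripts of the GRCm38 (mm10) build on the strand of the transcript. The pattern was a C, 5 bases of stem, the loop CAGTGN (N being A, C or T) and 5 bases pairing with the first stem, with up to 1 mismatch and G-T pairs allowed. It was found in 5 of the 10 genes, in each case in a UTR, and in no transcript of Ireb2, Aco1, Alas1, Fech or Hmox1. Of 21901 protein-coding genes searched, 8.05% had the pattern and 1.01% had it without a mismatch, so a match describes the letters only and is not evidence of protein binding. The pattern misses elements with another loop, and some transcripts known to carry an element had no match. Lack of a match, or the number of matches, therefore does not show that further elements are absent. Capitals mark the bulged C and the loop, and each sequence is written 5′ to 3′ with 5 flanking bases on each side.
Fth1 5′ UTR, chr19:9982733-9982759, plus strand: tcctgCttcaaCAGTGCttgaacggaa
Ftl1 5′ UTR, chr7:45459780-45459806, minus strand: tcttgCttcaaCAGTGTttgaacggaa
Slc40a1 5′ UTR, chr1:45925466-45925492, minus strand: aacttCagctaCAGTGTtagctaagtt
Slc11a2 3′ UTR, chr15:100395154-100395180, minus strand: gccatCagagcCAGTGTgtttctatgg
Tfrc 3′ UTR, element 1, chr16:32631220-32631246, plus strand: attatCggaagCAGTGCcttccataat
Tfrc 3′ UTR, element 2, chr16:32631599-32631625, plus strand: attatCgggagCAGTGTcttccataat
Tfrc 3′ UTR, element 3, chr16:32631664-32631690, plus strand: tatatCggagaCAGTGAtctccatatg
Tfrc 3′ UTR, element 4, chr16:32631711-32631737, plus strand: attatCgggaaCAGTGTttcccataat

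The Tfrc transcript held 4 matches and the other 4 genes 1 each. Positions here are those of the first base of each printed stretch, which is the first of the 5 flanking bases before the match. In the Tfrc transcript the 4 stretches started 887, 1266, 1331 and 1378 bases after the end of the coding sequence, within a 3′ UTR of 2461 bases. In the Slc11a2 transcript the stretch started 36 bases after the coding sequence, and its match was the only one of the 8 with a mismatch in the stem. In the Fth1, Ftl1 and Slc40a1 transcripts the stretches started at bases 88, 79 and 91 of the transcript.

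**Figure D1:**
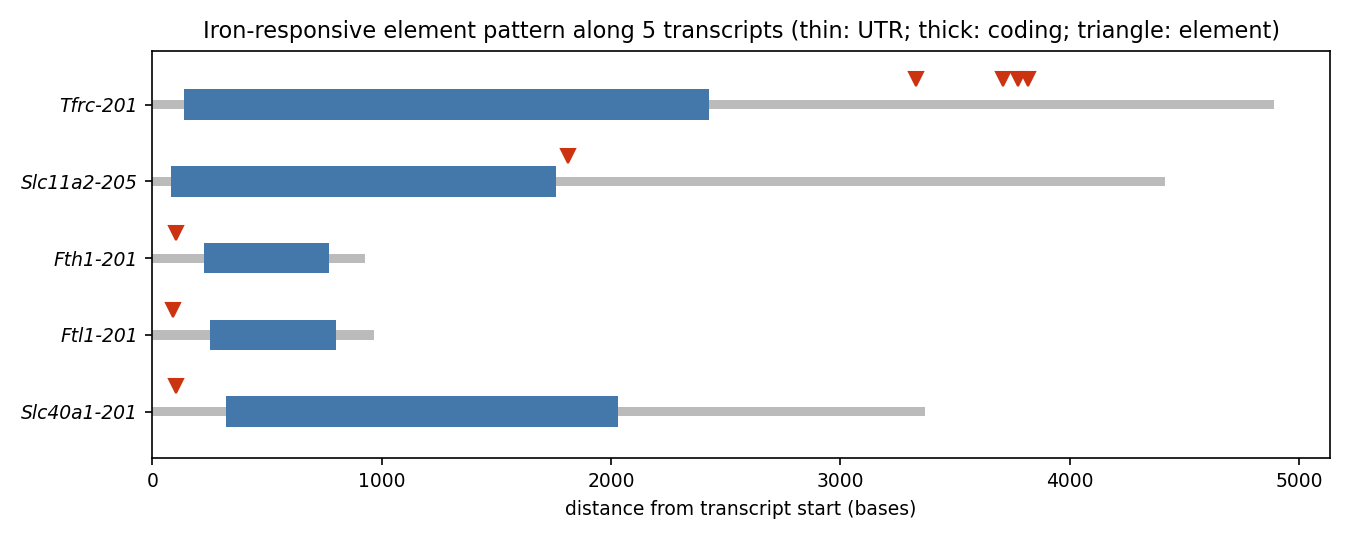
Positions of the iron-responsive element pattern along 1 transcript each of the 5 genes that had it, as distance from the transcript start in bases, with UTRs thin, coding sequence thick and elements as triangles. The 4 Tfrc matches and the Slc11a2 match lie after the coding sequence, and those of Fth1, Ftl1 and Slc40a1 lie before it.

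The largest difference among the 10 genes was in iron uptake, where Tfrc mRNA fell 2.82-fold in α1s/sα2s/s hearts. The iron exporter Slc40a1 rose 1.53-fold, and Alas1, which makes the rate-limiting enzyme of heme synthesis outside the red cell lineage, fell 1.83-fold. Ferritin, the iron regulatory proteins, the last enzyme of heme synthesis and heme oxygenase did not pass the threshold. In the edgeR quasi-likelihood fit of 14866 genes, with Benjamini-Hochberg adjusted p-values, 3 of the 10 genes had an adjusted p under 0.05, against 1.44% of all tested genes. In α1s/sα2s/s hearts 2 of them were lower, against 0.659% of all genes, and 1 was higher, against 0.780%. Because Tfrc's fall led to the choice of the genes, nothing was read from these counts. The median log2 fold change of the 10 genes was 0.04, with 5 above and 5 below 0, and that of all tested genes was -0.01. The normalised counts of 7 of the 10 did not overlap between genotypes, against 20.0% of all tested genes. The 7 included Slc11a2, Ireb2, Aco1 and Fech, which did not pass the threshold, and nothing was read from this count either.

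**Figure D2:**
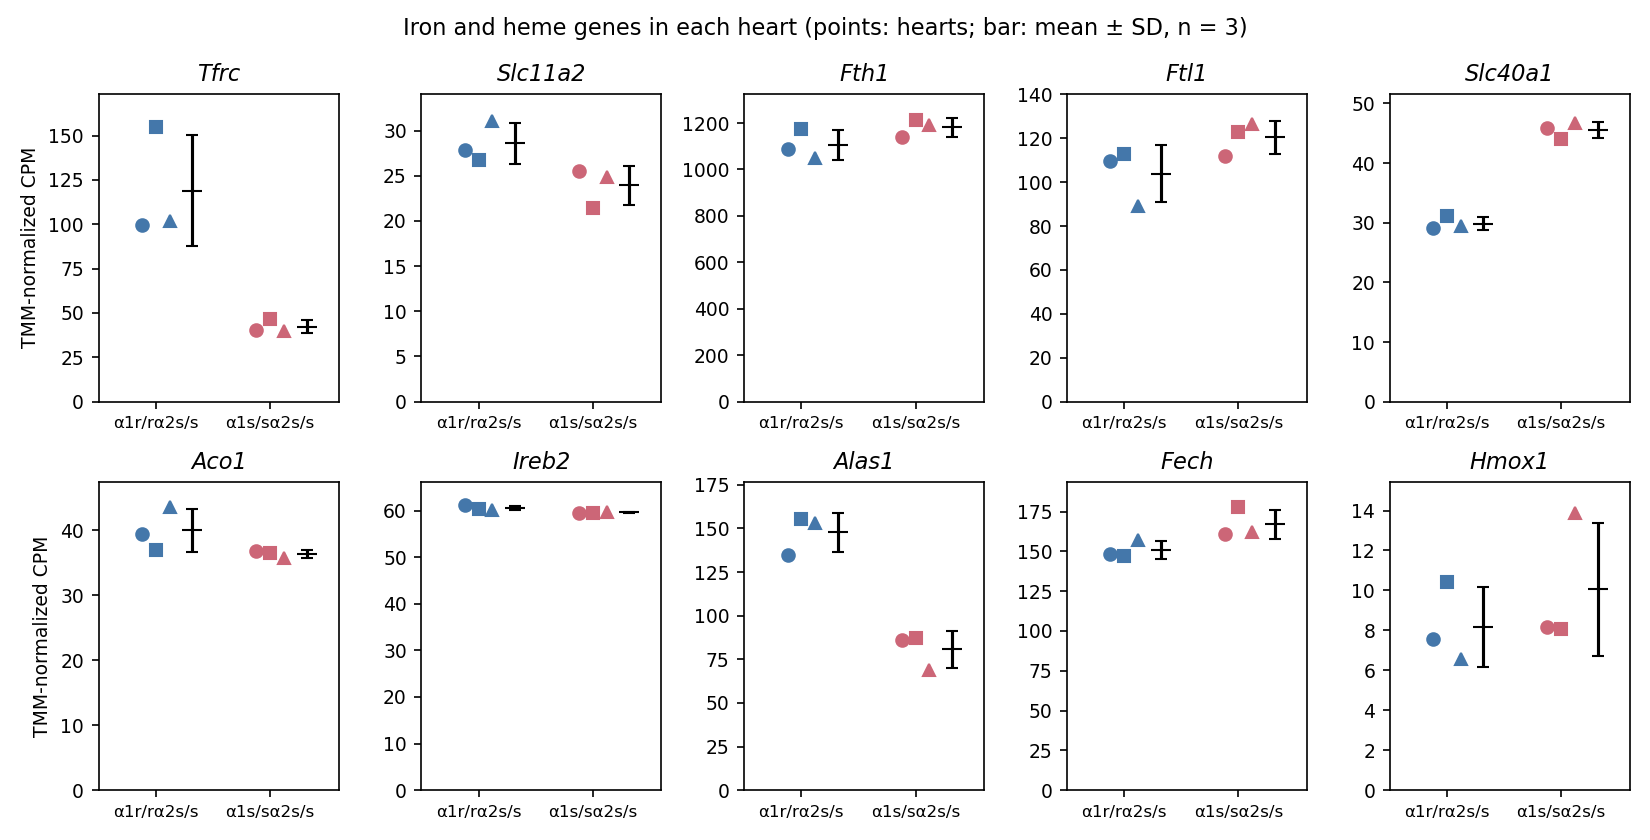
TMM-normalized CPM of the 10 genes in each heart, with 1 point per heart and a bar for the mean ± SD of 3 hearts per genotype. Tfrc and Alas1 are lower and Slc40a1 higher in every α1s/sα2s/s heart than in any α1r/rα2s/s heart, while Fth1, Ftl1 and Hmox1 overlap.

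Tfrc (ENSMUSG00000022797, chr16:32608920-32632794, plus strand) encodes transferrin receptor 1, which carries iron-loaded transferrin into the cell. Its read counts were 2088, 3244 and 2030 in the α1r/rα2s/s hearts of mice 368, 369 and 370, and 811, 884 and 767 in the α1s/sα2s/s hearts of mice 379, 380 and 381. As CPM, the count divided by the library total after TMM normalization and scaled to a fixed depth, they were 99.7, 155 and 102 in α1r/rα2s/s hearts and 40.3, 46.5 and 39.8 in α1s/sα2s/s hearts. The genotypes did not overlap, and the lowest α1r/rα2s/s heart was above the highest α1s/sα2s/s heart by more than the whole spread of the α1s/sα2s/s hearts. The mean was 119 ± 31.3 CPM (SD, n = 3) in α1r/rα2s/s and 42.2 ± 3.75 CPM (SD, n = 3) in α1s/sα2s/s hearts, a log2 fold change of -1.50 ± 0.14 (SE). By unadjusted p in the main fit, Tfrc, whose fall led to the choice of the genes, ranked 3 among all tested genes. With a robust prior its log2 fold change was the same and its SE was 0.20.

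The α1r/rα2s/s group was the more variable for Tfrc, with a coefficient of variation of 26.3% against 8.89% in α1s/sα2s/s hearts, and mouse 369 was well above mice 368 and 370. Leaving out mouse 369 brought the log2 fold change of Tfrc to -1.25 ± 0.09 (SE). The related receptor gene Tfr2 had 6 counts in mouse 368, 1 in each of mice 379 and 380 and 0 in the other hearts, so it was not tested. RNA was taken from whole hearts, in which fewer cells of a type and less RNA per cell cannot be told apart.

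Slc11a2 (ENSMUSG00000023030, chr15:100387898-100425072, minus strand) encodes the divalent metal transporter DMT1, which moves iron out of the endosome once transferrin has released it. It measured 27.9, 26.8 and 31.1 CPM in α1r/rα2s/s hearts and 25.5, 21.5 and 24.8 CPM in α1s/sα2s/s hearts. All 3 α1s/sα2s/s hearts were below all 3 α1r/rα2s/s hearts, with a gap smaller than the spread within either group. The log2 fold change was -0.26 ± 0.10 (SE), which did not pass the threshold. Slc11a2 has its match in the 3′ UTR as Tfrc does, and its difference was of the same sign and smaller. Whether the matches had a part in either difference was not tested. Counts per gene do not separate Slc11a2 transcripts with the match from any without it.

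The ferritin subunits form the shell in which cells store iron. Fth1 (ENSMUSG00000024661, chr19:9982703-9985092, plus strand), the heavy chain that oxidizes iron on entry, measured 1090, 1175 and 1048 CPM in α1r/rα2s/s and 1138, 1214 and 1191 CPM in α1s/sα2s/s hearts. The ranges overlapped, and the log2 fold change was 0.10 ± 0.07 (SE). Ftl1 (ENSMUSG00000050708, chr7:45457944-45459884, minus strand), the light chain, measured 109.5, 112.9 and 88.9 CPM in α1r/rα2s/s and 112, 123 and 127 CPM in α1s/sα2s/s hearts. Mouse 370 was the lowest for Ftl1, the ranges overlapped, and the log2 fold change was 0.21 ± 0.09 (SE). Neither subunit passed the threshold.

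Ferritin genes have many processed copies in the mouse genome among which reads can be divided. The count table listed 14 such copies, whose summed counts reached at most 17 in any heart, against 20864 or more for Fth1 and 1770 or more for Ftl1. How reads that match several copies were counted is not given in the sources used here, so ferritin levels are uncertain to that extent. Ftmt, the mitochondrial ferritin, had 0 counts in all 6 hearts.

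Slc40a1 (ENSMUSG00000025993, chr1:45908068-45926523, minus strand) encodes ferroportin, the only known exporter of iron from mammalian cells. Its read counts were 608, 651 and 585 in α1r/rα2s/s hearts and 924, 838 and 901 in α1s/sα2s/s hearts. In CPM these were 29.0, 31.1 and 29.4 in α1r/rα2s/s and 45.9, 44.1 and 46.7 in α1s/sα2s/s hearts. The hearts of each genotype lay close together and the genotypes were far apart compared with that spread. The mean was 29.8 ± 1.11 CPM (SD, n = 3) in α1r/rα2s/s and 45.6 ± 1.35 CPM (SD, n = 3) in α1s/sα2s/s hearts, a log2 fold change of 0.61 ± 0.08 (SE).

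Exporter and receptor were thus changed in opposite directions, and their ratio was computed within each heart from CPM per kilobase of gene length. The ratio of Slc40a1 to Tfrc was 0.200, 0.138 and 0.198 in α1r/rα2s/s hearts and 0.783, 0.652 and 0.807 in α1s/sα2s/s hearts. Its mean was 0.179 ± 0.0353 (SD, n = 3) in α1r/rα2s/s and 0.747 ± 0.0838 (SD, n = 3) in α1s/sα2s/s hearts. The ratio of Fth1 to Ftl1, in contrast, was 16.6 ± 1.48 (SD, n = 3) and 15.2 ± 0.595 (SD, n = 3), with overlapping hearts. The size of such ratios depends on the gene lengths used, but their fold difference between genotypes does not. Another length, that of the longest coding transcript, was added after the data were seen. With it, Slc40a1 was at 13.5 and Tfrc at 8.63 CPM per kilobase in α1s/sα2s/s hearts.

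The iron regulatory proteins, which read the elements shown above, are encoded by Aco1 (IRP1, also the cytosolic aconitase) and Ireb2 (IRP2). Ireb2 (ENSMUSG00000032293, chr9:54863789-54912530, plus strand) measured 61.2, 60.3 and 60.2 CPM in α1r/rα2s/s and 59.6, 59.4 and 59.8 CPM in α1s/sα2s/s hearts. These were the most even values of any of the 10 genes, with no overlap but a log2 fold change of -0.02 ± 0.07 (SE). Aco1 (ENSMUSG00000028405, chr4:40143081-40198338, plus strand) measured 39.5, 36.9 and 43.5 CPM in α1r/rα2s/s and 36.8, 36.5 and 35.7 CPM in α1s/sα2s/s hearts. The genotypes were separated by less than the spread of the α1r/rα2s/s hearts, and the log2 fold change was -0.14 ± 0.09 (SE). Both genes are regulated after transcription, by protein breakdown for IRP2 and by an iron-sulfur cluster for IRP1, neither of which mRNA counts measure.

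In heme synthesis the mRNA of the first enzyme fell and that of the last did not pass the threshold. Alas1 (ENSMUSG00000032786, chr9:106233455-106248654, minus strand), the first, had read counts of 2828, 3251 and 3049 in α1r/rα2s/s hearts and 1738, 1658 and 1323 in α1s/sα2s/s hearts. These were 135, 155 and 153 CPM in α1r/rα2s/s and 86.3, 87.2 and 68.6 CPM in α1s/sα2s/s hearts. The genotypes did not overlap, and mouse 381 was the lowest heart. The mean was 148 ± 11.1 CPM (SD, n = 3) in α1r/rα2s/s and 80.7 ± 10.5 CPM (SD, n = 3) in α1s/sα2s/s hearts, a log2 fold change of -0.87 ± 0.09 (SE).

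Fech (ENSMUSG00000024588, chr18:64456550-64489066, minus strand), which inserts iron into protoporphyrin as the last step, measured 148, 147 and 157 CPM in α1r/rα2s/s and 161, 178 and 162 CPM in α1s/sα2s/s hearts. The α1s/sα2s/s hearts were all above the α1r/rα2s/s hearts, by a gap smaller than the spread of either group. The log2 fold change was 0.15 ± 0.07 (SE) and did not pass the threshold. The ratio of Alas1 to Fech, from CPM per kilobase, was 0.461 ± 0.0345 (SD, n = 3) in α1r/rα2s/s and 0.227 ± 0.0269 (SD, n = 3) in α1s/sα2s/s hearts. Its size, too, depends on the gene lengths used. With the longest coding transcript, Alas1 was at 43.5 and Fech at 22.9 CPM per kilobase in α1r/rα2s/s hearts.

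Alas2, the erythroid form of the first enzyme, had 539, 804 and 275 counts in α1r/rα2s/s hearts and 427, 1603 and 168 in α1s/sα2s/s hearts. Its levels overlapped widely, with mouse 380 the highest and mouse 381 the lowest, and its log2 fold change was 0.55 ± 0.53 (SE, adjusted p = 0.684 in edgeR's quasi-likelihood test).

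Hmox1 (ENSMUSG00000005413, chr8:75093621-75100589, plus strand), the inducible heme oxygenase that frees iron from heme, was the least expressed of the 10 genes in CPM. It measured 7.54, 10.4 and 6.58 CPM in α1r/rα2s/s and 8.19, 8.05 and 13.9 CPM in α1s/sα2s/s hearts. Mouse 381 was the highest and the other 5 hearts overlapped. The log2 fold change was 0.29 ± 0.22 (SE), and without mouse 381 it was -0.011, so the sign rested on that heart. The constitutive form Hmox2 measured 36.4 CPM on average in both genotypes and did not pass the threshold.

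Levels were compared between genes only as CPM per kilobase of gene length. In α1r/rα2s/s hearts they ranged from 1275 for Fth1 through 77.4 for Ftl1, 51.9 for Fech, 23.9 for Alas1 and 19.2 for Tfrc to 8.89 for Aco1, 6.39 for Ireb2, 4.67 for Hmox1, 4.50 for Slc11a2 and 3.32 for Slc40a1. Neighbours in this order did not overlap between hearts except Alas1 with Tfrc and Hmox1 with Slc11a2. In α1s/sα2s/s hearts Tfrc, at 6.82 CPM per kilobase, came after Aco1 at 8.08, and Slc40a1, at 5.06, came before Slc11a2 at 3.77. There the neighbours that overlapped were Ireb2 with Hmox1 and Hmox1 with Slc40a1. The order depended on the length used. With the longest coding transcript in place of the count table's gene length, a choice made after the data were seen, Fech moved from 3 to 5 in the order of α1r/rα2s/s hearts and Slc40a1 from 10 to 8, while Fth1 and Ftl1 remained the highest.

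The 10 genes were placed among 93 genes in lists of iron and heme handling, of which 84 were tested. Of these 46 were higher and 38 lower in α1s/sα2s/s hearts. The 3 that passed the threshold, against 1.44% of all tested genes, were Tfrc, Slc40a1 and Alas1, all among the 10. Of the 74 tested genes that are not among the 10, 41 were higher and 33 lower, with a median log2 fold change of 0.04 and a range of -0.50 to 0.55. None of the 74 passed in edgeR, against 1.44% of all tested genes. In that fit 15 (20.3%) had an unadjusted p under 0.05, against 14.5% of all tested genes. DESeq2, which gave a p for 82 of the listed genes outside the 10, called 1, and 14 (17.1%) had an unadjusted p under 0.05 there, against 6.87% of the 28182 genes with a p in DESeq2. The 28182 genes include low-count genes that the edgeR filter removed, whereas most listed genes passed that filter, so the DESeq2 shares are not of like genes. The 1 called by DESeq2 was Urod, the enzyme of heme synthesis that makes coproporphyrinogen, named after its values were seen. It measured 41.8 CPM in α1r/rα2s/s and 52.3 CPM in α1s/sα2s/s hearts. Its log2 fold change in edgeR was 0.33 ± 0.09 (SE, adjusted p = 0.0909 in edgeR's quasi-likelihood test).

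Iron uptake and trafficking had 16 tested genes, 6 higher and 10 lower, of which Tfrc was the 1 that passed. Among 12 tested genes of heme synthesis, 7 were higher and 5 lower, and Alas1 was the 1 that passed. In iron export, Slc40a1 passed and the other 2 tested genes did not, with a median log2 fold change of 0.06 over the 3. Of the 10 transcripts known to carry an iron-responsive element, 6 were higher and 4 lower. Tfrc and Slc40a1 passed, in opposite directions, against 1.44% of all tested genes.

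No gene passed in the other iron and heme lists, against 1.44% of all tested genes. In storage and chaperones 4 of 5 tested genes were higher, and Pcbp2, which delivers iron to ferritin, measured 110 and 125 CPM (adjusted p = 0.200 in edgeR's quasi-likelihood test). In iron sensing and hepcidin control 3 of 9 were higher, among them Fbxl5, which marks IRP2 for breakdown when iron is plentiful, at 53.8 and 64.4 CPM (adjusted p = 0.173), and Bmp6, which drives hepcidin, at 29.3 and 37.5 CPM (adjusted p = 0.263). In mitochondrial iron handling and iron-sulfur cluster assembly 16 of 23 were higher. The median log2 fold change of these 23 was 0.09. The smallest p of that list was that of Iba57, a late assembly factor, at 23.4 and 30.3 CPM (adjusted p = 0.0884). In heme breakdown and transport 5 of 12 were higher, and the smallest p values were those of Lrp1, the hemopexin receptor, at 201 and 173 CPM (adjusted p = 0.277), and Blvrb, a biliverdin reductase, at 9.35 and 7.85 CPM (adjusted p = 0.486). In each pair the α1r/rα2s/s mean is given first, and the adjusted p is from the edgeR fit over all genes.

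**Figure D3:**
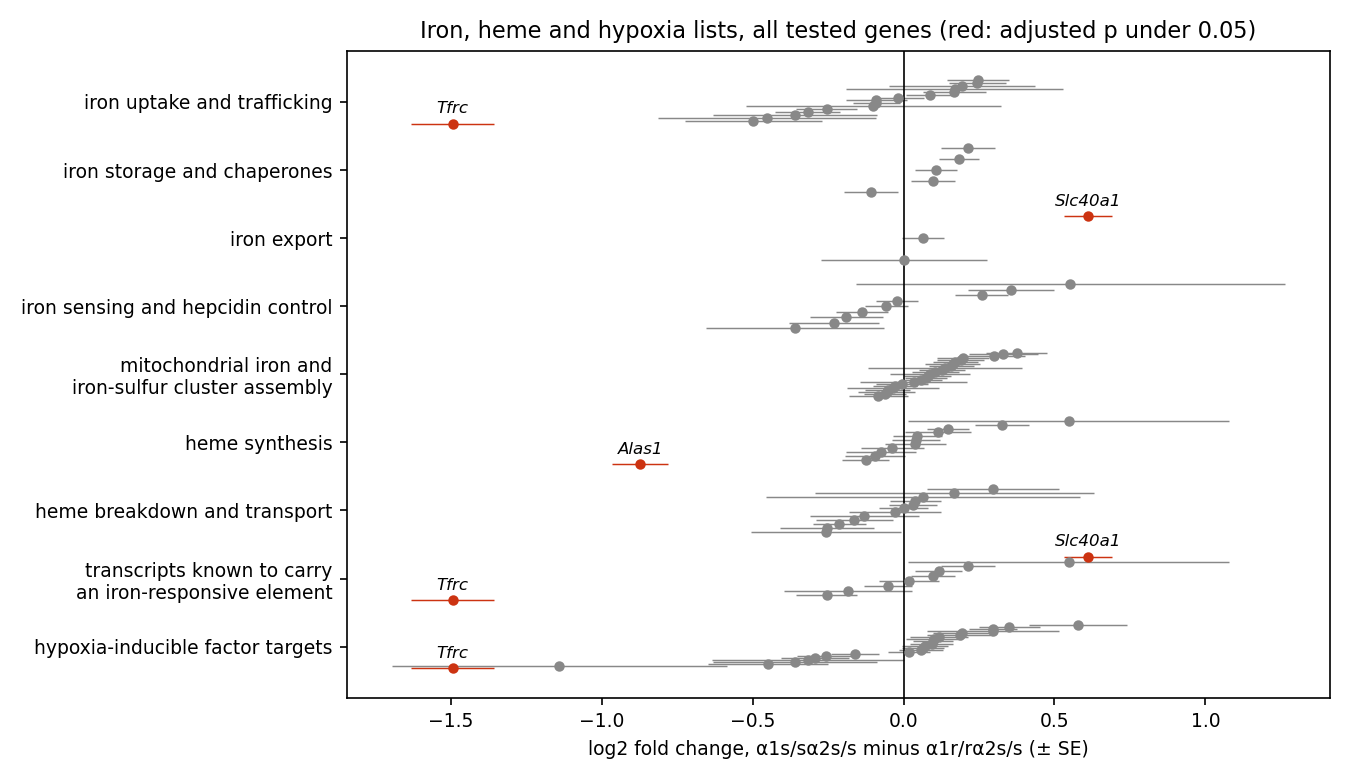
Log2 fold change (α1s/sα2s/s minus α1r/rα2s/s) ± SE of every tested gene in the iron, heme and hypoxia lists, 1 point per gene, red where the adjusted p was under 0.05. Tfrc at -1.50, Alas1 at -0.87 and Slc40a1 at 0.61 are the red points and stand outside the other genes of their iron and heme lists.

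The genes whose pattern over the 6 hearts was most like that of Tfrc were sought by the Euclidean distance between log2 CPM profiles, each centred on its mean, among genes whose mean log2 CPM was 1 or more. The 5 nearest were Apln at a distance of 0.568, Ret at 0.692, Ip6k3 at 0.70, Ccnd1 at 0.711 and Cd109 at 0.743. Apln, the peptide ligand apelin, averaged 23.8 CPM in α1r/rα2s/s and 11.04 CPM in α1s/sα2s/s hearts. Ccnd1, cyclin D1, averaged 55.7 and 28.5 CPM in the same order. Alas1 was 8 in this order, at 0.866, and the nearest of the other 9 iron genes. The measure rewards any gene lower in α1s/sα2s/s hearts, and it rests on 6 hearts.

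The markers of the cells that a heart sample can hold were measured beside these differences. All 9 cardiomyocyte markers were present, led by Myh6, with summed levels of 62660 to 75930 CPM in α1r/rα2s/s and 68740 to 74530 CPM in α1s/sα2s/s hearts, and none passed the threshold. The proliferation markers, of interest because dividing cells carry much transferrin receptor, summed to 48.2 to 58.8 CPM in α1r/rα2s/s and 34.4 to 47.7 CPM in α1s/sα2s/s hearts, which were apart by a narrow margin. All 7 tested proliferation markers of 10 were lower in α1s/sα2s/s hearts, with a median log2 fold change of -0.53, and the 1 that passed was Top2a, named after its values were seen, at -0.99 (adjusted p = 0.0318 in edgeR's quasi-likelihood test). Cenpf was the highest of that list, and none of its 10 markers was at 0 in all hearts. The part of proliferating cells in the difference of Tfrc was not tested.

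Red cell precursors are rich in Tfrc and Alas2. The 13 erythroid markers, led by Hbb-bs, summed to 573 to 1306 CPM in α1r/rα2s/s and 429 to 3220 CPM in α1s/sα2s/s hearts, with mouse 380 the highest and mouse 381 the lowest of all. The ranges overlapped and none of the 7 tested passed. None of the 13 was at 0 in all hearts. Tfrc measured 46.5 CPM in mouse 380 and 39.8 CPM in mouse 381, the hearts with the extreme erythroid sums. Mouse 379 lay between them for both, at 40.3 CPM for Tfrc and 830 CPM for the sum. Mouse 369 was the highest α1r/rα2s/s heart for both, at 155 and 1306 CPM. Mice 368 and 370 differed in opposite directions, with Tfrc at 99.7 and 102 CPM and sums of 992 and 573 CPM. Without mouse 380 the log2 fold change of Tfrc was -1.57. The part of red cells and their precursors in the difference of Tfrc was not tested.

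Macrophages recycle iron and are a known site of Slc40a1 and Hmox1 expression. Their 10 markers, led by Lyz2, summed to 394 to 617 CPM in α1r/rα2s/s and 350 to 431 CPM in α1s/sα2s/s hearts. All 10 were lower in α1s/sα2s/s hearts, none past the threshold, with a median log2 fold change of -0.37, whereas Slc40a1 was higher there. Endothelial markers, led by Kdr, summed to 1203 to 1411 and 1068 to 1279 CPM, and fibroblast markers, led by Dcn, to 1155 to 1362 and 1030 to 1196 CPM, again with α1r/rα2s/s hearts first. The ranges overlapped in both and no marker passed. Mouse 369, the highest for Tfrc, was also the highest of all hearts for the summed proliferation, macrophage, endothelial and fibroblast markers. No marker of these lists was at 0 in all hearts, and the part of these cells in the differences was not tested.

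**Figure D4:**
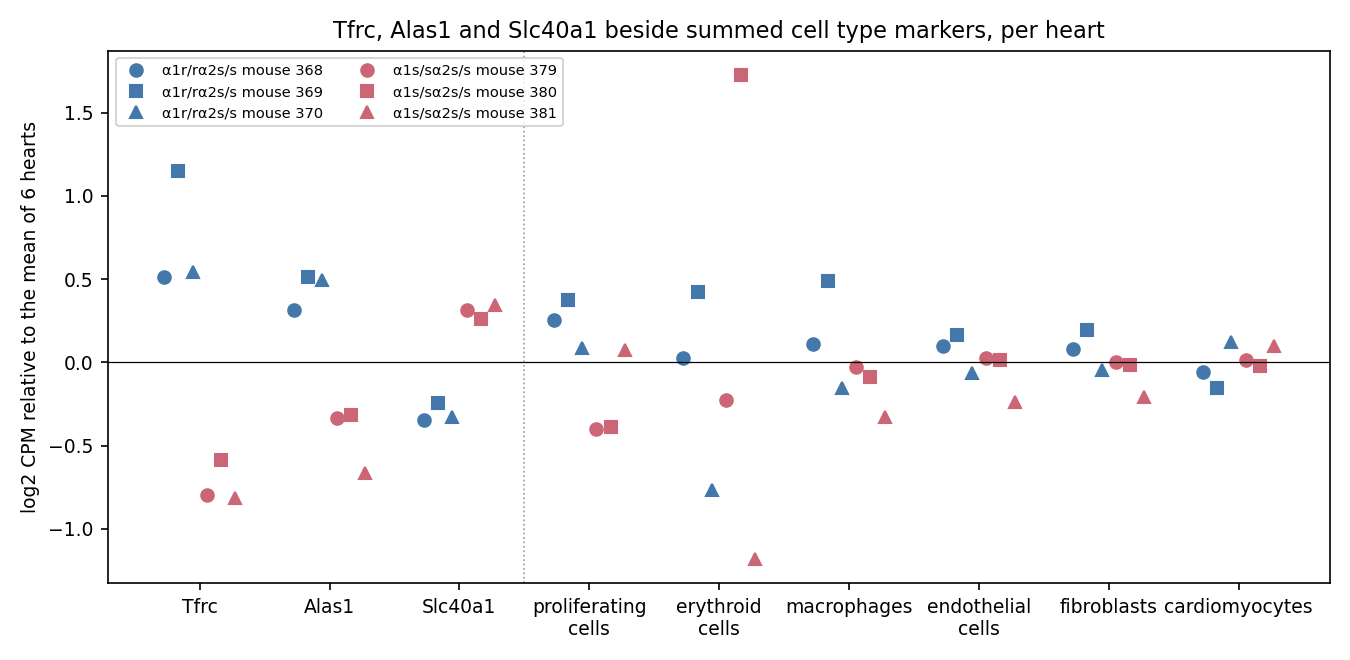
Log2 CPM of Tfrc, Alas1 and Slc40a1 and of the summed markers of 6 cell classes, relative to the mean of the 6 hearts, with 1 point per heart. The genotypes separate for the 3 iron genes and, by a narrow margin only, for the proliferation markers, and overlap for the other classes. Mouse 380 stands highest for the erythroid markers.

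Total counts were 19309312 to 20470065 per heart, and 21234 to 22515 genes had a count. Genes encoded by the mitochondrial genome took 23.4% to 24.4% of counts in α1r/rα2s/s and 25% to 26% in α1s/sα2s/s hearts, and leaving them and the globins out changed no call among the 10 genes. The common biological coefficient of variation was 11.1%. Of genes that overlap the 10 on the genome, none had over 6 counts in any heart.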

How the data were processed

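RNA from 6 whole hearts was sequenced on an Illumina NovaSeq system. The authors deposited read counts per gene without normalization, made by a sequencing company. The submitters' processing notes name fastp, STAR, featureCounts and mm10, and use of strand is not given in the sources used here. The authors' second deposited table holds their own DESeq2 comparison (mean signal, log2 fold changes, standard errors on the log2 scale, a test score, p-values and adjusted p-values) and was not used. All per-sample count columns were mapped to a heart by mouse number, leaving 0 unused. Genotypes came from the labels. Coordinates are those of the count table, identical to GENCODE M21 for 8 of the 10 genes and 53499 of 54532 in all.

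Counts were analysed in R 4.3.3 with edgeR 4.0.16 and limma 3.58.1 (TMM, filterByExpr with minimum count 10 and minimum total 15, quasi-likelihood test, Benjamini-Hochberg adjustment over 14866 genes, threshold 0.05). The standard error was the log2 fold change divided by the root of F. Log2 CPM used a prior count of 2. Counts of hearts of 1 genotype were further apart than sampling alone gives, at 6.85 to 13.1 chi-square units per gene, so each counted as 1 replicate. Alternatives were DESeq2 1.42.0, upper-quartile or RLE factors, keeping every gene with a count, a stricter filter of 10 counts in each heart, no globin or mitochondrially encoded genes, a robust prior and leaving out each heart.

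The 10 genes, the pathway and marker lists and the tests were chosen with earlier results of these data known. Named genes were the 10, list genes past the threshold, the 2 of smallest p in lists where none passed, paralogs, the 5 profiles nearest to Tfrc and the highest marker of each list. Genes outside this rule are said to be named after their values were seen. Some genes that the rule names are not reported here.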

Additional observations from a re-analysis of the deposited data

How the results depend on the processing

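Of 130 values of the 10 genes under alternatives, 129 kept their direction and their side of the threshold. The exception was Hmox1, whose log2 fold change was -0.011 without mouse 381 and up to 0.51 when another heart was left out. Tfrc ranged from -1.60 to -1.25, Alas1 from -0.93 to -0.77 and Slc40a1 from 0.59 to 0.64, and 3 of the 10 genes passed under every alternative run. The count of genes that differed over the whole table was 214, with 403 by DESeq2, 618 without a filter, and 80 (without mouse 368) to 158 (without mouse 370) when 1 heart was left out. Of the iron and heme lists, 3 genes passed, and 7 without a filter. Outside the 10 genes the count was 0, with 1 by DESeq2 (Urod), 4 without a filter (Urod, Bmp6, Iba57 and Alas2), and 0 to 1 when 1 heart was left out, the 1 being Iba57 without mouse 380. The causes were not tested. Other scalings moved the median of all genes by -0.013 (upper-quartile factors) to 0.004 (DESeq2) on the log2 scale. For Slc11a2, Ftl1 and Fech, missing the threshold with 3 hearts per genotype does not show that levels were equal. Levels per kilobase with the longest coding transcript, added after seeing the data, were 739 for Fth1, 22.9 for Fech, 43.5 for Alas1 and 24.3 for Tfrc in α1r/rα2s/s hearts.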

Other observations

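Tfrc is also a target of hypoxia-inducible factors, and 22 such targets were listed and tested. In α1s/sα2s/s hearts 14 were higher and 8 lower, with a median log2 fold change of 0.07, and Tfrc was the 1 that passed, downward, in edgeR's quasi-likelihood test. Apart from the 10 iron genes, 0 of 20 passed in edgeR, against 1.44% of all tested genes. At an unadjusted p under 0.05 there were 6 in edgeR, against 14.5% of all tested genes. In DESeq2 1 of the 20 passed, with 6 at an unadjusted p under 0.05, against 6.87% of the 28182 genes with a p. The DESeq2 shares are again not of like genes, because the 28182 include low-count genes that the edgeR filter removed. Of the 6 in edgeR, 3 were higher in α1s/sα2s/s hearts (Mxi1, Slc2a1 and Bnip3) and 3 lower (Hk2, Egln3 and Adm), all named after their values were seen. The 1 in DESeq2 was Bnip3, a mitophagy receptor, at 116 ± 13.2 CPM (SD, n = 3) in α1r/rα2s/s and 148 ± 21.3 CPM (SD, n = 3) in α1s/sα2s/s hearts. Its adjusted p was 0.0238 in DESeq2 and 0.116 in edgeR. The part of hypoxia-inducible factors in the difference of Tfrc was not tested.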
